A study of Mus musculus with 7 samples.

Results

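The 5 hairpins described here, mmu-mir-451, mmu-mir-320, mmu-mir-877, mmu-mir-702 and mmu-mir-3102, are mouse microRNA (miRNA) precursors known to be made without Drosha, without Dicer, or in an unusual form. They were taken by name out of 1174 mouse hairpins searched, of which 687 had at least 1 sequenced tag and 352 had at least 150. Every tag was placed on its best hairpin without gaps and with at most 2 mismatches, and its count was summed by position, start, end and length. The 5 hairpins held 288474 tags, which was 0.703% of all 41041362 placed tags.

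The tags came from HL-1, an immortalised mouse atrial cardiomyocyte line, seeded sparsely and grown for 4 days while the cells began to beat. There were 2 libraries each for days 4, 3 and 1 and 1 library for day 2, all from the same untreated line, and the replicate number marks which of 2 repeats of the time course a library came from. RNA below 70 nt was selected before library preparation and SOLiD sequencing. Repeats of 1 cell line measure the spread between cultures and not between animals.

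A canonical miRNA hairpin is released from its primary transcript by Drosha in the nucleus and cut by Dicer in the cytoplasm into a duplex, of which one strand is loaded into an Argonaute protein. Mirtrons are short introns that become a hairpin after splicing and lariat debranching, so that the splice sites take the place of Drosha. The mir-320 precursor is transcribed as a capped hairpin that needs no Drosha, and the mir-451 precursor has a stem too short for Dicer, is cut by AGO2 and then trimmed at its 3′ end. miR-451 is best known from red blood cells.

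The annotated strands below are shown because their seeds and outer ends are what the results turn on. They are 9 RefSeq mature sequences (GRCm38.p6), with the seed, bases 2 to 8, in capitals.
miR-451: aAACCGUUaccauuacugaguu
miR-877-5p: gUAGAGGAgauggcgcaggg
miR-877-3p: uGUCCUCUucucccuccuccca
miR-702-5p: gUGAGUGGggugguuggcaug
miR-702-3p: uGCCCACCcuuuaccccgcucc
miR-3102-5p: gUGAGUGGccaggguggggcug
miR-3102-5p.2: gGUGGUGCaggcaggagagcc
miR-3102-3p.2: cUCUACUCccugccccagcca
miR-3102-3p: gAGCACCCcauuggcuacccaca
The 5′ strands of mir-702 and mir-3102 shared the seed UGAGUGG and no other mature strand of the RefSeq set had it. Both begin at the first base of an intron, and the seed there takes in the 5′ splice site. Every other seed shown belonged to its own strand alone.

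On GRCm38, mir-877 is at chr17:35960730-35960814 on the minus strand, and its 85 nt are the whole of an intron of Abcf1, a gene of translation initiation. mir-3102 is at chr7:100882306-100882409 on the minus strand, and its 104 nt are the whole of an intron of Arhgef17. mir-702 is at chr5:136991433-136991541 on the plus strand. Its host intron in Plod3, a collagen lysyl hydroxylase gene, runs from 136991442 to 136991543, so that the annotated hairpin begins 9 nt before the intron and ends 2 nt short of it. mir-320 is at chr14:70443510-70443591 on the plus strand, 63 nt from the start of Polr3d, an RNA polymerase III subunit gene on the other strand. mir-451 is at chr11:78073170-78073241 on the plus strand, 100 nt downstream of mir-144, a canonical hairpin of the same primary transcript.

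Libraries held between 4945093 and 6899411 tags, of which 0.338% were not placed and 92.9% were placed without a mismatch. Levels are given as counts scaled to a common total of placed tags (CPM), so they are relative to all hairpin tags of a library. The muscle hairpins mir-1a, mir-133a, mir-208a and mir-499 together held 9.52% of placed tags, with 86065 to 105979 CPM per library. They were very uneven. The copies of mir-1a held 1354367 and 1328569 tags, whereas mir-208a held 100401 and mir-499 only 343. The blood cell hairpins mir-142, mir-223 and mir-150 together had 17.3 to 27.2 CPM and the hepatocyte hairpin mir-122 averaged 2.94 ± 1.47 CPM. The neuronal hairpins mir-124 and mir-9 summed to 18.6 to 35.9 CPM, and mir-126 of endothelium averaged 739 ± 169 CPM (SD, n = 7 libraries). None of these hairpins was at 0.

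Among the 606 hairpins with tags, counting copies of a hairpin once, mir-3102 ranked 44 with 196826 tags, mir-320 ranked 81 with 50355, mir-877 ranked 106 with 26556, mir-702 ranked 122 with 13713 and mir-451 ranked 193 with 1024. One strand carried most tags of each hairpin. miR-3102-3p was the most abundant strand, at 3686 ± 1173 CPM (SD, n = 7 libraries), and was above miR-320, at 1212 ± 318 CPM, in 7 of 7 libraries. miR-877-3p averaged 580 ± 298 CPM and was below miR-320 in 7 of 7 libraries. The inner strands of mir-3102 followed, miR-3102-3p.2 at 559 ± 222 CPM and miR-3102-5p.2 at 464 ± 135 CPM, and then miR-702-3p at 325 ± 178 CPM. The levels of these last 4 strands overlapped, and each pair of neighbours kept its order in only 4 or 5 of 7 libraries. miR-877-5p at 50.1 ± 20.2 CPM and miR-451 at 24.1 ± 6.39 CPM came next. The remaining strands were near the limit of detection, with 76 tags of miR-3102-5p, 49 of miR-702-5p, 32 of miR-451* and 23 of miR-320* over all 7 libraries.

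**Figure D1:**
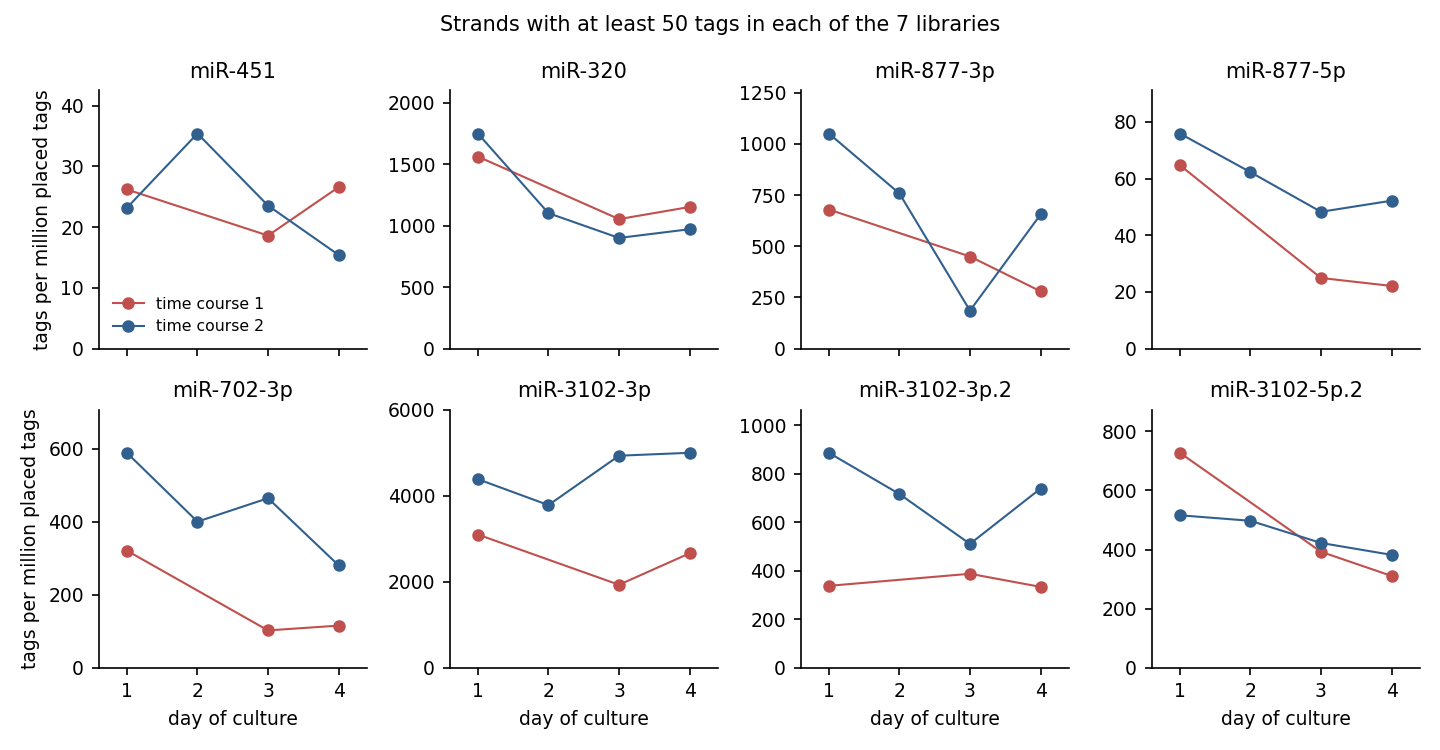
Tags as CPM of placed tags (vertical axis, from 0, with its own scale in each panel) by day of culture for the 8 strands with at least 50 tags in every library, with 1 point per library and lines joining the libraries of time course 1 and time course 2. miR-702-3p and miR-3102-3p were higher in time course 2 on all 3 days that have both replicates, and miR-3102-3p reached 5002 CPM at day 4 of that course.

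mir-451 gave almost only 1 strand, and that strand ran from the 5′ arm across the terminal loop. miR-451 took 95.2 ± 1.45% of the tags of its hairpin (SD, n = 7 libraries). The loop of the structure predicted with RNAfold is at positions 35 to 38 of the hairpin. Tags that covered the whole loop made up 90.5 ± 1.80% of mir-451 tags, against 0.0573% for mir-320, 0.286% for mir-877, 0.208% for mir-702 and 0.00677% for mir-3102. Over the 347 other hairpins with at least 150 tags the median was 0.236% and the upper quartile 1.62%. Coverage of the loop was not particular to mir-451, since 9 of those 347 hairpins also had most of their tags across it and 2 had at least 90%.

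The libraries of day 1 held 178 and 144 miR-451 tags, that of day 2 held 179, those of day 3 held 100 and 136, and those of day 4 held 131 and 106. These are 26.2 and 23.2 CPM, 35.4 CPM, 18.6 and 23.5 CPM, and 26.6 and 15.4 CPM, and the days overlapped. The blood cell hairpins together lay at 17.3 to 27.2 CPM, and the part of blood cells in the level of miR-451 was not tested. The neighbouring mir-144 had 355 tags, of which 319 (89.9%) lay outside its annotated strands, leaving 23 tags of miR-144-5p and 13 of miR-144-3p. It was one of the 9 other hairpins with most tags across the loop, as 87.3% of its tags covered the whole of it.

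The 5′ end of miR-451 was fixed and its 3′ end was not. Of its tags, 97.7 ± 1.48% began at position 17, the annotated first base. Lengths of 23 nt (46.4 ± 6.75%) and 22 nt (31.1 ± 6.43%) were the most frequent, followed by 25 nt (7.09 ± 4.08%) and 24 nt (5.92 ± 1.76%). The most frequent tag was 1 nt longer than the annotated strand, and a 25-nt tag carried 2 further bases. Both tags, written with T as sequenced and with the seed in capitals, show that the seed stays and the 3′ end varies.
miR-451 23 nt, 428 tags: aAACCGTTaccattactgagttt
miR-451 25 nt, 61 tags: aAACCGTTaccattactgagtttag
Tags longer than 24 nt made up 8.96 ± 4.31% of miR-451.

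**Figure D2:**
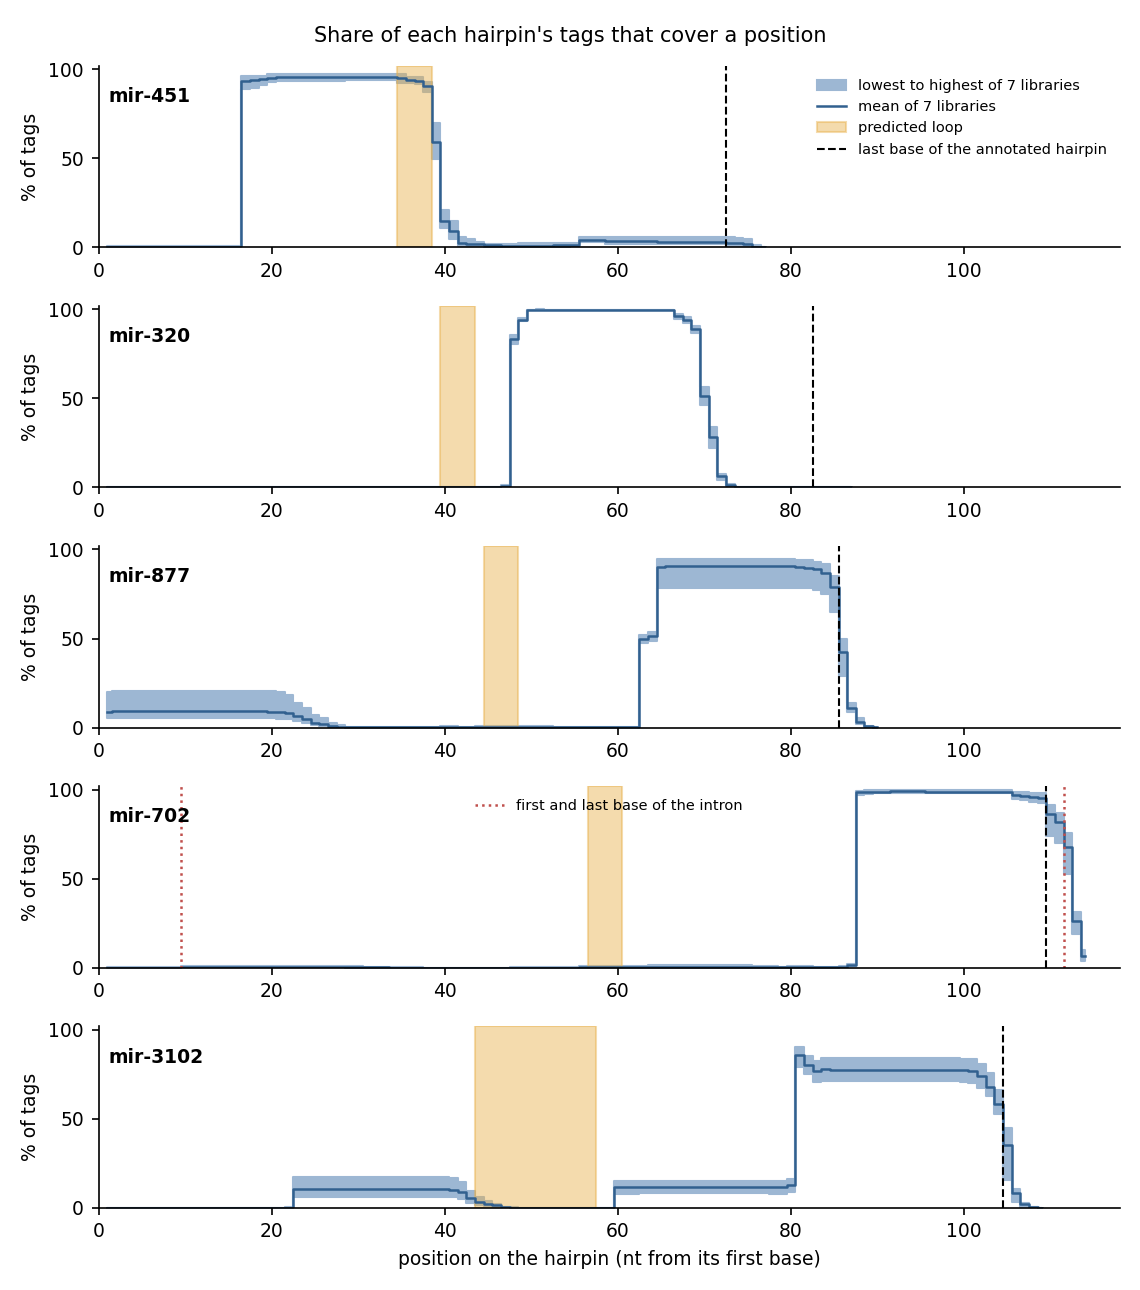
Share of each hairpin's tags (vertical axis, percent) that cover each position from the first base of the hairpin (horizontal axis, nt), as the mean of 7 libraries (line) and the range from lowest to highest (band), with the predicted loop shaded and the last annotated base dashed. Coverage of mir-451 runs through the loop, coverage of mir-320 lies in the 3′ arm alone, and tags of mir-877, mir-702 and mir-3102 run past the last annotated base.

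mir-320 gave tags almost only from the 3′ arm, which carried 99.8 ± 0.051% of its tags. Levels of miR-320 were 1561 and 1748 CPM on day 1, 1101 CPM on day 2, 1052 and 899 CPM on day 3, then 1151 and 970 CPM on day 4. The libraries of day 1 were the 2 highest of the 7. Its 5′ end was spread over 4 neighbouring bases. Position 48, the most frequent start, held 82.3 ± 2.04% of tags, position 49 held 11.0 ± 1.61%, position 50 held 5.54 ± 0.545% and position 47 held 1.03 ± 0.131%. Each shift of the start changes the seed. The 3′ end was broader, with 37.9 ± 3.92% of tags at position 69 and 22.6 ± 2.29% and 22.3 ± 3.06% at the next positions, 70 and 71.

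A mismatch to the hairpin was carried by 13.8 ± 2.36% of miR-320 tags, against 6.78 ± 1.33% of all placed tags. Among the other main strands the share was between 1.15% for miR-702-3p and 5.71% for miR-877-3p. Most of the 6916 mismatched miR-320 tags (2759, 1439 and 650 of them) changed the same base near the 3′ end to one of the other bases. Their source was not tested.

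mir-877, mir-702 and mir-3102 are mirtrons, and in all of them the strand from the 3′ arm was the abundant one. On mir-877, the share of miR-877-3p was 90.5 ± 5.38% and that of miR-877-5p 9.04 ± 5.15% (SD, n = 7 libraries). The share of miR-877-5p was 20.5% in replicate 2 of day 3 and 5.23% to 8.65% in the other 6 libraries, and without that library it averaged 7.14 ± 1.13%. miR-702-3p took 98.9 ± 0.726% of mir-702 tags and miR-702-5p took 0.371 ± 0.226%.

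Most tags of the 5′ strands of the mirtrons began at the first base of the intron. Of miR-877-5p tags, 97.8 ± 0.948% did so, or 2068 of 2108 tags. In the rarer strands, 40 of 49 miR-702-5p tags and 73 of 76 miR-3102-5p tags began there. For mir-702 that base is position 10 of the annotated hairpin, so earlier starts could be seen there. For mir-877 and mir-3102 it is the first base of the hairpin, and the deposited tags had been mapped to hairpins. How often tags of those hairpins began before the intron therefore cannot be read from these shares.

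miR-877-3p had 2 starts of similar weight, 2 nt apart. Position 63, the annotated start, held 55.0 ± 4.17% of its tags and position 65 held 43.1 ± 3.94%, whereas position 64 between them held 1.68%. By library, position 65 held 46.0% and 42.4% on day 1, 44.2% on day 2, 45.7% and 34.8% on day 3, then 42.9% and 45.7% on day 4. The share was lowest in replicate 2 of day 3. The 2 most frequent tags, written with T as sequenced, show the shift.
miR-877-3p from position 63, 5998 tags: tGTCCTCTtctccctcctcccag
miR-877-3p from position 65, 5197 tags: tCCTCTTCtccctcctcccag
The first ends at the last base of the intron, and the second has 1 further base past it that was deposited as unread. The seed from position 65 is CCUCUUC, which no mature strand of the RefSeq set has. The start share of the 3′ strand was 42.9 ± 4.55 percentage points below that of the 5′ strand of the same hairpin, and was lower in every library (7 of 7, exact permutation of the signs of the differences, two-sided p = 0.0156, adjusted p = 0.0313 over 2 pairs of strands). The smallest p this test can give is 0.0156 with 7 libraries and 0.0313 with 6. With any 1 library left out the adjusted p was 0.0625. The arms of other hairpins were not compared in this way. Between libraries, the median start share was 93.9% to 94.7% over other 3′ strands and 98.0% to 98.3% over other 5′ strands. The most frequent start of miR-877-5p is the first base of the hairpin, so starts before it could be missed. The inner strands of mir-3102 were both precise, with 98.2 ± 0.414% of miR-3102-3p.2 tags and 98.5 ± 0.237% of miR-3102-5p.2 tags at 1 start (difference -0.24 ± 0.518 percentage points, exact p = 0.281).

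The 3′ strands of the mirtrons reached the last base of the intron and often went past it. For miR-877-3p, 40.7 ± 2.89% of tags ended at the last intron base, 34.2 ± 4.20% ended 1 nt past it, and 46.5 ± 5.28% ended past it in all. For miR-702-3p, 13.9 ± 4.26% ended at that base, 41.9 ± 12.1% ended 1 nt past it, 20.4 ± 2.98% ended 2 nt past it, and 68.7 ± 9.20% ended past it in all. For miR-3102-3p, 29.8 ± 11.2% ended at that base, 34.9 ± 8.26% ended 1 nt past it, and 45.2 ± 10.9% ended past it in all.

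The bases beyond the annotated hairpin were deposited as unread, so these tags show that a base was there and not which base it was. Of placed tags with unread 3′ bases, 99.6% had all of them past a hairpin end. The origin of these bases was not tested. Tags reaching more than 5 nt past a hairpin are not in the lists, which for mir-702 means that ends more than 3 nt past the intron could not be seen. The most frequent tag of miR-3102-3p, shown because its last base is one of these, had 24 read bases and 1 unread one.
miR-3102-3p, 54268 tags: gAGCACCCcattggctacccacag

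The share of tags past the intron end differed among libraries. For miR-3102-3p it was 43.8% and 52.3% on day 1, 48.3% on day 2, 22.2% and 53.4% on day 3, then 43.7% and 52.6% on day 4. Replicate 1 of day 3 stood alone, and without it the mean was 49.0 ± 4.45% (n = 6). For miR-702-3p the share was 75.7% and 73.5% on day 1, 69.4% on day 2, 53.7% and 75.7% on day 3, then 75.3% and 57.8% on day 4. The same library was the lowest, and without it the mean was 71.2 ± 7.01%. For miR-877-3p the shares were 43.9%, 46.4%, 45.5%, 48.4%, 37.1%, 50.3% and 53.8% in the same order of libraries, and replicate 2 of day 3 was the lowest.

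Among other hairpins, 5 annotated 3′ strands with at least 150 tags lay at an annotated intron end, namely miR-1981-3p, miR-1982-3p, miR-3076-3p, miR-3097-3p and miR-3087-3p. Between 15.9% and 62.7% of their tags ended past the intron, with a median of 33.9%. For 6 strands that ended at the end of a hairpin but not of an intron, the median share past the hairpin end was 3.58%, with a range of 0.714% to 38.7%. The ranges overlapped, and no test was made between them.

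**Figure D3:**
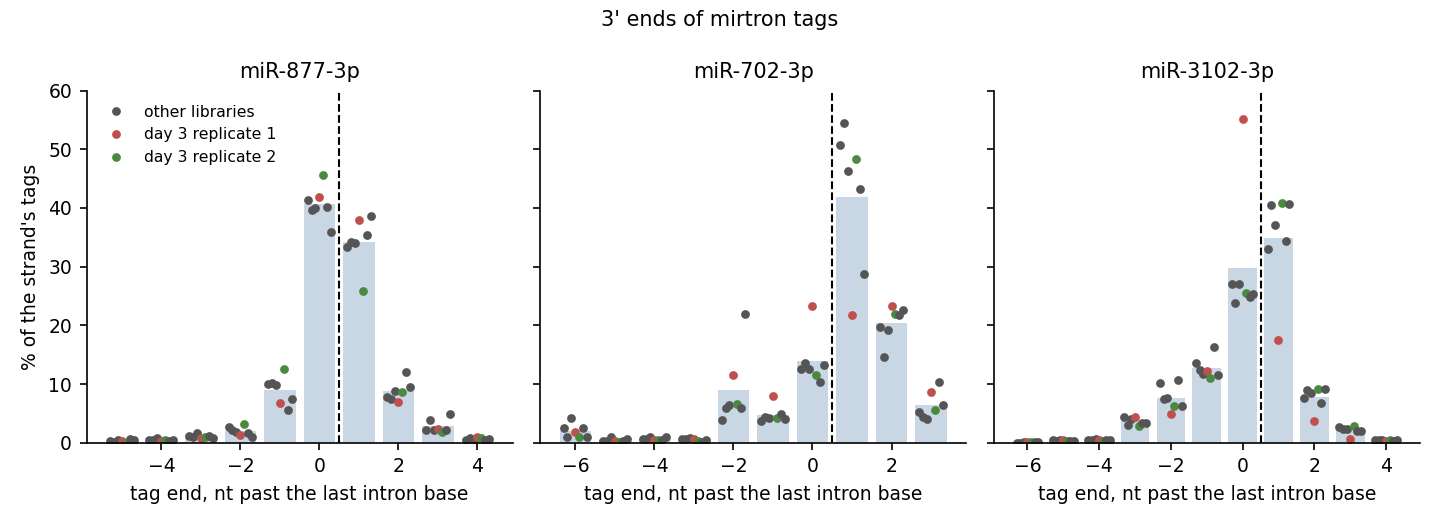
Share of tags (vertical axis, percent) by the position of their 3′ end relative to the last base of the host intron (horizontal axis, nt, with 0 as the last intron base) for miR-877-3p, miR-702-3p and miR-3102-3p, with bars for the mean of 7 libraries and 1 point per library. Replicate 1 of day 3 stands apart for miR-3102-3p, with 55.2% of tags at the last intron base and 17.6% at 1 nt past it.

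mir-3102 carried 2 strands on each arm, laid end to end. The outer pair is miR-3102-5p and miR-3102-3p, whose outer ends are those of the intron, and the inner pair is miR-3102-5p.2 and miR-3102-3p.2, next to the loop. miR-3102-3p took 77.5 ± 4.58% of the tags of the hairpin, miR-3102-3p.2 took 11.8 ± 2.92%, miR-3102-5p.2 took 10.5 ± 4.02% and miR-3102-5p took 0.0389 ± 0.0217%. The outer pair was therefore very uneven, with 941 to 3828 tags of miR-3102-3p for each tag of miR-3102-5p. The inner pair was near balance, with a ratio of miR-3102-3p.2 to miR-3102-5p.2 between 0.465 and 1.93 and a median of 1.21. It was above 1 in 5 of 7 libraries.

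The inner 5′ strand had its highest share in replicate 1 of day 1. miR-3102-5p.2 made up 17.4% and 8.90% of mir-3102 tags on day 1, 9.94% on day 2, 14.5% and 7.19% on day 3, then 9.39% and 6.24% on day 4. On each day with both replicates, the share was higher in replicate 1. How often the shares of other strands differed between replicates on every day was not counted. miR-3102-3p made up 74.2% and 75.7% on day 1, 75.6% on day 2, 71.1% and 84.0% on day 3, then 80.4% and 81.6% on day 4.

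Neighbouring strands of mir-3102 overlapped by a few bases. Of miR-3102-3p.2 tags, 89.5 ± 2.45% contained position 81, the first base of miR-3102-3p. Of the 76 miR-3102-5p tags, 52 contained position 23, the first base of miR-3102-5p.2. Tags that share a base in this way cannot both come from 1 molecule of the hairpin.

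miR-3102-3p began at position 81 in 95.2 ± 0.292% of tags. Smaller groups began at position 84, with 2.88 ± 0.224% or 4421 tags, and at position 80, with 1.39 ± 0.171% or 2143 tags. The start at 84 gives the seed ACCCCAU, which no strand of the RefSeq set has. The start at 80 gives the seed GAGCACC, which miR-3547-3p also has.

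**Figure D4:**
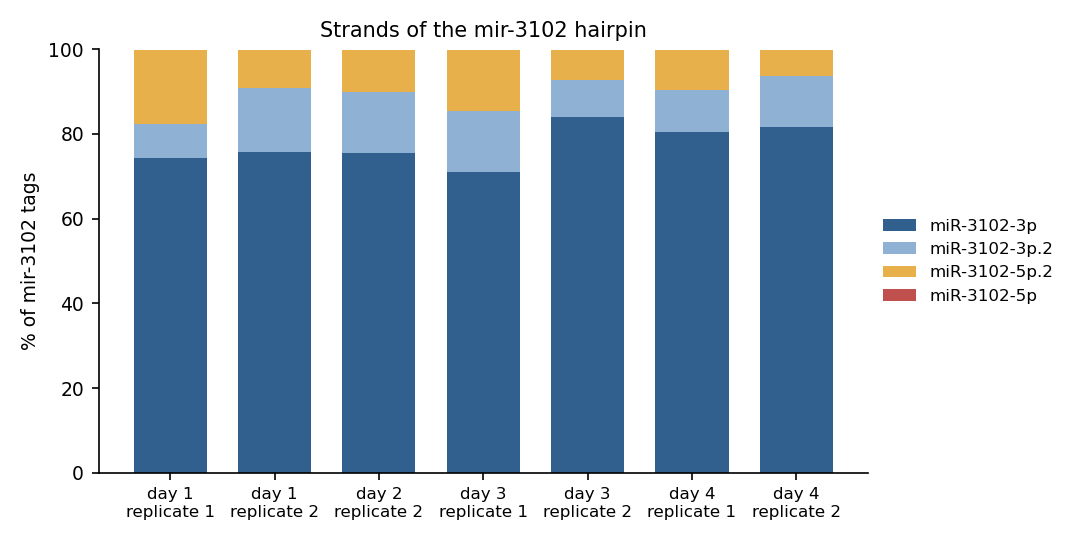
Share of mir-3102 tags (vertical axis, percent, from 0) held by each of its 4 strands in each of the 7 libraries, stacked. miR-3102-3p holds between 71.1% and 84.0%, the inner strands hold most of the rest, and miR-3102-5p is too rare to be seen.

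Ends were then compared with those of all other strands that had at least 50 tags in every library, 146 of the 5′ arm and 164 of the 3′ arm. For each library, the median of those strands was subtracted from the value of the main strand. The 7 differences were tested by exact permutation of their signs (two-sided), and p was adjusted over all 312 strands, each tested in the same way. For the share of tags at the most frequent start, 81.7% of the 312 strands passed, and the calls below are read against that share.

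miR-877-3p had 55.0% of tags at its most frequent start, against a median of 94.1% for other 3′ strands, and was lower in 7 of 7 libraries (exact p = 0.0156, adjusted p = 0.0202). Only 13 of the 164 strands had a lower share. miR-320, at 82.3% against 94.1%, was also lower in 7 of 7 libraries (adjusted p = 0.0202 by the exact test), with 50 of 164 strands below it. miR-702-3p, at 98.0% against 94.0%, and miR-3102-3p, at 95.2% against 94.0%, were higher in 7 of 7 (exact test, adjusted p = 0.0202 for each). Below them were 119 and 94 of the 164 strands. The direction for miR-3102-3p depended on which strands it was set against. Against the median of the other 311 strands of both arms, which was 96.4%, it was lower in 7 of 7 libraries (difference -1.16 percentage points). miR-451, at 97.7% against 98.2% for other 5′ strands, was higher in 2 of 7 libraries (exact p = 0.375, adjusted p = 0.399). Against both arms it was higher in 5 of 7, by 1.28 percentage points (exact p = 0.0938). Of all 3′ strands 39.4% were above and 43% below their arm median in every library, and of all 5′ strands 34% and 37.4%.

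The most frequent 3′ end held a smaller share of tags in miR-320 (37.9% against 46.2%), miR-877-3p (40.7% against 46.2%) and miR-3102-3p (34.9% against 46.2%) than in the median 3′ strand (lower in 7 of 7 libraries, exact test, adjusted p = 0.0236 for each). Of the 312 strands, 73.1% passed. In every library, 30.3% of 3′ strands were below and 33.9% above their arm median, and 32.7% of 5′ strands were below and 34.7% above theirs. miR-3102-3p had 25 of 164 strands below it, miR-320 had 45 and miR-877-3p had 58. miR-451, at 46.9% against 44.1% (adjusted p = 0.302), and miR-702-3p, at 41.9% against 46.1% (adjusted p = 0.493), did not pass the exact test.

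Long tags were frequent in mir-702 and mir-3102. Tags longer than 24 nt made up 68.7 ± 9.29% of miR-702-3p and 43.4 ± 10.3% of miR-3102-3p, against a median of 1.05% for other 3′ strands. In these 2 strands the length rests on unread bases. The most frequent tag of 25 nt had 3 of them in miR-702-3p and 1 in miR-3102-3p. From the most frequent start, tags longer than 24 nt end past the intron, so these shares largely repeat the shares past the intron end. All 164 other strands were below miR-702-3p, and 161 of 164 were below miR-3102-3p, the 3 above it being miR-702-3p, miR-301a-3p and the 3′ strand of mir-301b. miR-320 at 5.15 ± 1.36% and miR-877-3p at 4.86 ± 1.37% were above the same median, and miR-451 at 8.96% was above the 2.27% of other 5′ strands. All 5 were higher in 7 of 7 libraries (exact test, adjusted p = 0.0215), a test that 77.9% of the 312 strands passed. Being above the median in every library was shared by 36.4% of 3′ strands and 40.8% of 5′ strands, and being below it by 30.3% and 38.8%. In replicate 1 of day 3, long tags made up 22.0% of miR-3102-3p, against 41.6% to 51.6% in the other libraries.

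Changes of the last base alone were counted only in tags that ended within the hairpin with that base read. No tag of this kind from the 5 main strands differed from its hairpin at the last base alone. The count left out at least 46.5% of miR-877-3p, 68.7% of miR-702-3p and 45.2% of miR-3102-3p tags, so it says little for the mirtrons. Tags that differed at the last base alone were found in 32 of 146 other 5′ strands and 29 of 162 other 3′ strands. They were present in every library for 12.2% of 5′ strands and 7.36% of 3′ strands. The median of each arm was 0 in every library, and these strands were too few for the smallest p to survive adjustment. None of the 310 strands could therefore pass the test, and 0 did, so the test says nothing here.

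**Figure D5:**
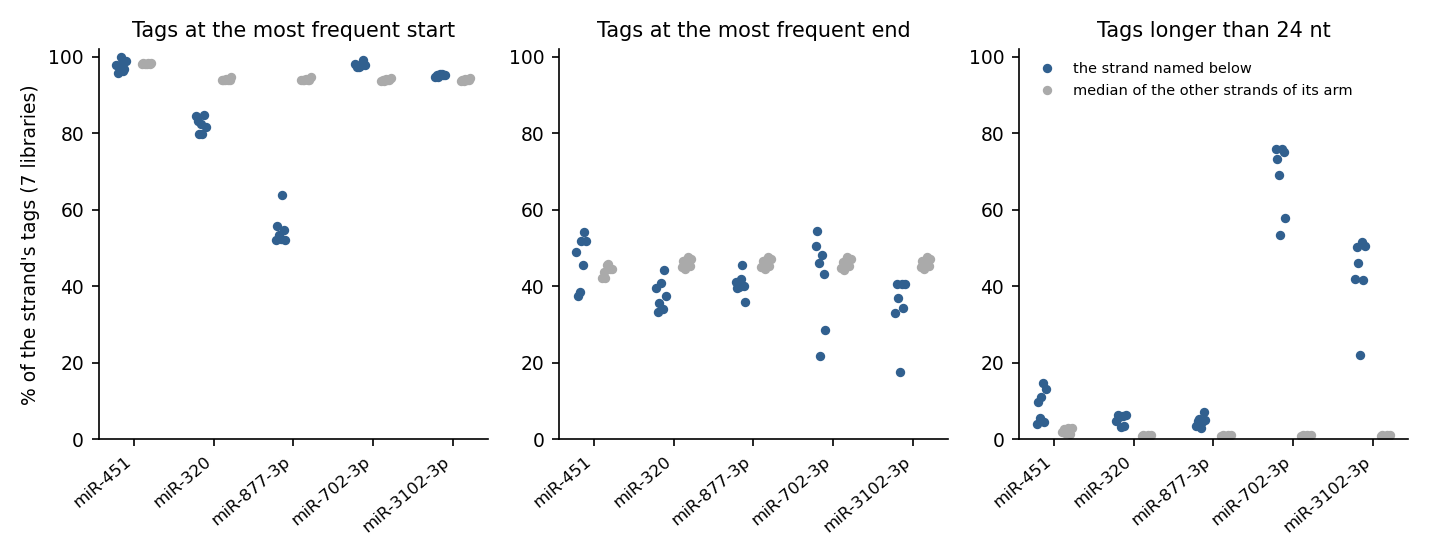
Share of tags (vertical axis, percent) at the most frequent start, at the most frequent end and longer than 24 nt, with 1 point per library for the strand named (blue, left) and for the median of the other strands of the same arm (grey, right). miR-877-3p lies between 52.2% and 63.9% in the first panel, and miR-702-3p between 53.5% and 76.0% in the last.

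The levels were compared between day 4 and day 1, when cells beat and when they did not, over 921 strands and groups of tags with edgeR's quasi-likelihood test. No strand of the 5 hairpins passed the adjusted threshold of 0.05, and neither did any other of the 921, of which 86 (9.34%) had an unadjusted p under 0.05. DESeq2 called 11, none of them from these hairpins. In simulated counts with known changes, the edgeR test recovered 45% of 2-fold and 89% of 4-fold changes. The spread between libraries in that simulation was set (dispersion 0.03) and not taken from the data. For strands that vary more between libraries, the shares recovered would be lower. Of the 12 strands of the 5 hairpins, 10 had enough tags to be tested, and 0 of the 10 had an unadjusted p under 0.05. In bulk RNA, fewer cells with a miRNA and less of it per cell cannot be told apart.

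The point values were below 0 for 9 of the 10 strands, with a median log2 change of -0.75 against -0.01 over all 921. The 10 strands come from only 5 hairpins and are not independent of each other. How many of the 921 values were below 0 was not counted. miR-702-3p had 116 and 281 CPM at day 4, against 321 and 589 CPM at day 1 (log2 change -1.10, SE 0.74, edgeR adjusted p = 0.678). The days did not overlap. The lower value of day 1 (321 CPM) was close to the higher value of day 4 (281 CPM), but these libraries belong to different time courses. Within a course, miR-702-3p fell each time, by log2 ratios of CPM of -1.47 (first course) and -1.07 (second course). The paper, which asked for at least a 2-fold difference in each replicate and a minimum tag count at each time point, listed miR-702 among its down-regulated miRNAs. By RT-qPCR normalised to snoRNAs, it found only a marginal average decrease over the candidates tested, miR-702 among them. The miRNAs it took as unregulated rose in abundance from day 1 to day 4 by that measure. Levels relative to all hairpin tags, as used here, cannot show such a bulk rise. miR-3102-5p.2 had 311 and 382 CPM at day 4, against 727 and 516 CPM at day 1 (log2 change -0.71, SE 0.33, edgeR unadjusted p = 0.0607, adjusted p = 0.570). miR-320 had 1151 and 970 CPM at day 4, against 1561 and 1748 CPM at day 1 (log2 change -0.53, SE 0.31, edgeR adjusted p = 0.656). miR-877-3p had 280 and 655 CPM at day 4, against 679 and 1051 CPM at day 1 (log2 change -0.79, SE 0.55, edgeR adjusted p = 0.695). miR-877-5p had 22.1 and 52.2 CPM at day 4, against 64.7 and 75.9 CPM at day 1 (log2 change -0.81, SE 0.53, edgeR adjusted p = 0.678). In these 5 strands both day 4 libraries were below both day 1 libraries, and the differences did not pass the test. The same held for the rare miR-702-5p, at 0.406 and 1.60 CPM on day 4, against 2.50 and 1.61 CPM on day 1, which makes 6 of the 10 strands tested. Of all 921 strands and groups of tags, 25.5% were separated in this direction and 14.5% in the other.

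The days overlapped in miR-451, miR-3102-3p and miR-3102-3p.2. miR-3102-3p had 2663 and 5002 CPM at day 4, against 3100 and 4388 CPM at day 1 (log2 change 0.14, SE 0.51, edgeR adjusted p = 0.961). Both day 4 values lay outside the range of day 1, one below and one above it. miR-451 had a log2 change of -0.12 (SE 0.43) and miR-3102-3p.2 one of -0.11 (SE 0.56).

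Days 3 and 4 together against days 1 and 2 gave no call either, in edgeR 0 of 921 with 62 (6.73%) at an unadjusted p under 0.05, and in DESeq2 5, none of them from the 5 hairpins. The lowest unadjusted p of a strand was 0.0664, for miR-877-3p (log2 change -0.90, SE 0.43, edgeR adjusted p = 0.766). That strand had 450 and 185 CPM on day 3 and 280 and 655 CPM on day 4, against 679 and 1051 CPM on day 1 and 758 CPM on day 2, so all 4 later libraries were below the 3 earlier ones, as in 10.5% of the 921, while 1.52% had all later libraries above.

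Processing of the hairpins was also compared between day 4 and day 1, with limma on log2 odds. The share of a strand in its hairpin gave 0 calls among 452 tested (43 or 9.51% at an unadjusted p under 0.05), the share at the most frequent start 0 of 303 (24 or 7.92%), and the share at the most frequent end 0 of 312 (39 or 12.5%). All 12 strands of the 5 hairpins were tested for their share and 8 for each kind of end, and 0 had an unadjusted p under 0.05 in any of the 3 comparisons. Only limma was run for these.

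Some strands differed between the repeats of the time course on every day. miR-877-5p, miR-702-3p, miR-3102-3p and miR-3102-3p.2 were higher in time course 2 on 3 of 3 days, which makes 4 of the 10 strands tested. Of all 921 strands and groups of tags, 21.5% were higher and 23.6% lower in time course 2 on every day. For miR-702-3p the log2 ratio of time course 2 to time course 1 was 0.88 on day 1, 2.18 on day 3 and 1.28 on day 4. For miR-3102-3p it was 0.50, 1.35 and 0.91. What differed between the repeats is not given in the labels.

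The strands with the most similar profile over the 7 libraries were found among 421 strands and groups of tags with at least 150 tags, as the highest Pearson correlation of log2(CPM + 1). The points share their library and its depth, and these are the highest of 421, so the values are a description. For miR-451 they were miR-500-3p (r = 0.914) and let-7i-3p (r = 0.895). For miR-320 they were the 5′ strand of mir-688 (r = 0.933) and the 3′ strand of mir-504 (r = 0.905). For miR-877-3p they were miR-615-3p (r = 0.949) and miR-483-5p (r = 0.939). For miR-702-3p they were miR-883a-3p (r = 0.963) and miR-191-5p (r = 0.954). For miR-3102-3p they were miR-335-5p (r = 0.977) and the 5′ strand of mir-3076 (r = 0.973). Most of these partners were rare, with 196 tags for mir-3076 and 214 for miR-335-5p, whereas miR-191-5p had 341781.

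Other hairpins of unusual origin were present at a similar total. mir-484, whose precursor comes from a capped transcript, ranked 36 with 258742 tags, above mir-3102. The mirtron mir-1224, in Vwa5b2, had 152 tags. The snoRNA-like hairpins mir-1839 and mir-664 had 22960 and 5533 tags, and the tRNA-like mir-1983 had 9275. The hairpins described here held 0.703% of placed tags, against 0.723% for these 5 together.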

How the data were processed

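Total RNA of HL-1 cultures was enriched for RNA below 70 nt, made into SOLiD small RNA libraries and sequenced. The authors mapped 18-nt anchors with at most 3 mismatches to hairpins of miRBase release 16 (build named in the submitters' processing notes: mm9) and deposited, for each library, distinct tags with raw counts that were not normalized. A further 101 lines, with 293 tags, gave no sequence and were not used.

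Tags of at least 16 nt were placed without gaps on GENCODE hairpins of GRCm38 with at most 2 mismatches, and could reach 5 bases beyond a hairpin. A tag with several best hits (28.5% of tags) was divided equally. Unread 3′ bases (N, on 0.459% of tags) counted towards length and end only. A strand took the tags that start within 3 nt of its annotated start. There were 1659 annotated strands from RefSeq (GRCm38.p6), and 384 arms without one, such as those of mir-320, were defined by their most frequent start. The remaining tags of a hairpin formed a group of their own.

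Levels were tested with edgeR 4.0.16 (TMM, filterByExpr, day as factor, all 7 libraries, Benjamini-Hochberg over all strands), with DESeq2 1.42.0 as an alternative. Shares were tested with limma 3.58.1 on log2 odds with a pseudocount of 0.5, for strands with at least 50 tags in every library (for the share of a hairpin, hairpins with that minimum) and at least 10 tags of each outcome. End precision was tested with exact sign-flip permutations over libraries, with p adjusted over all 312 strands and, as an alternative, over the 5 main strands. Loops were predicted with RNAfold (ViennaRNA 2.7.2). Scripts were tested on simulated data. Named are every strand of the 5 hairpins, every group of at least 150 tags on them, the listed comparison hairpins, and the 2 strands most correlated with each main strand.

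The members, lists and tests were chosen with earlier results of these data known. The replicate number pairs libraries because the study repeated the time course. Deviations from the day means of libraries with the same number correlated with r = 0.409 (days 1 and 3), 0.352 (days 1 and 4) and 0.33 (days 3 and 4) over 921 strands and groups. Libraries of 4945093 to 6899411 tags leave strands with few tags imprecise.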

Additional observations from a re-analysis of the deposited data

Results flagged for a closer look

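Each day has 1 or 2 libraries, so single libraries were compared with all 7 as 1 set by Dixon's ratio, whose 95% critical value for 7 is 0.568. Of 52 levels and shares examined, 10 held a library past it, where about 1 in 20 would be past it by chance. All 10 were shares. The shares within a strand are not independent of each other.

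Replicate 2 of day 3 stood apart for mir-877. In that library miR-877-3p took 78.6% of its hairpin and miR-877-5p 20.5%, the most frequent start of miR-877-3p held 63.9% of tags, and 25.9% of miR-877-3p tags ended 1 nt past the intron end. miR-877-3p was also at its lowest level there, at 185 CPM.

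Replicate 1 of day 3 stood apart for mir-3102 and mir-702. In that library 55.2% of miR-3102-3p tags ended at the last intron base, 17.6% ended 1 nt past it (for this strand also the most frequent end) and 22.2% ended past it in all, while 22.0% were longer than 24 nt. Of miR-702-3p tags, 23.2% ended at the last intron base. The median share at the most frequent end over other 3′ strands lay between 44.5% and 47.8% in every library.

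The time courses went in opposite directions from day 1 to day 4 for miR-451, whose log2 ratio of CPM (day 4 over day 1) was 0.021 in time course 1 and -0.59 in the other. They also did so for miR-3102-3p, where the ratios were -0.22 in time course 1 and 0.19 in the other. These differences were not tested.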

How the results depend on the processing

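No strand of the 5 hairpins was called in any comparison of days under any alternative (lowest adjusted p 0.17, for miR-702-3p at day 4 against day 1 with the replicate block). Over all strands and groups, day 4 against day 1 gave 11 calls with DESeq2, 1 with the replicate block and 0 to 5 when 1 library was left out (4 without replicate 1 and 5 without replicate 2 of day 3). Days 3 and 4 against days 1 and 2 gave 5 with DESeq2, 3 with no filter beyond 1 tag, 1 with the replicate block and 0 to 5 when 1 library was left out (5 without replicate 2 of day 3). The strand's share of its hairpin gave 5 calls with the replicate block, and the block changed no other count. With 6 libraries the smallest exact p is 0.0313. Adjusted over the 5 main strands, 3 end comparisons passed with all 7 libraries and 0 when 1 was left out. Adjusted over all strands, a choice made after seeing the data, these 3 had adjusted p of 0.0447 to 0.0469 when 1 was left out. Of the arm pairs, 1 passed with all 7 libraries and 0 when 1 was left out. For miR-320 ends without mismatched tags, adjusted p was 0.0521 over the 5 and 0.0444 over all strands.

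Several log2 changes near 0 turned sign. For miR-3102-3p at days 3 and 4 against days 1 and 2, library totals gave -0.054 and leaving out 1 library gave -0.20 to 0.41. For miR-3102-3p.2 in that comparison, the replicate block gave 0.044 and leaving out 1 library gave -0.61 to 0.23. At day 4 against day 1, leaving out 1 library gave -0.40 to 0.52 for miR-3102-3p, -0.80 to 0.86 for miR-3102-3p.2 and -0.56 to 0.22 for miR-451. Against strands of both arms, the difference in start precision was 1.28 percentage points for miR-451 and -1.16 for miR-3102-3p. The cause was not tested.

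The miR-3102-5p, miR-702-5p, miR-451* and miR-320* strands had too few tags for shares by library to be read. Bases past the hairpin ends were deposited as unread, and each day has 1 or 2 libraries.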
